A study of Mus musculus with 12 samples.

Results

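Expression of 7 genes that govern how cells take up glucose was followed through NKG2D stimulation of mouse natural killer (NK) cells. They are the hexose transporter genes Slc2a1, Slc2a3, Slc2a6 and Slc2a8, the Rab GTPase-activating protein genes Tbc1d1 and Tbc1d4, and Txnip. These 7 of the 50674 genes in the count table were selected by symbol, partly because Slc2a6 and Tbc1d4 were already known to be higher after stimulation in these libraries. Their stimulation values are therefore given as a description, without a test, and only the comparisons between genotypes were tested. All 7 passed the filter on low counts, as did 17457 genes in all.

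NK cells are cytotoxic lymphocytes, and NKG2D is one of their activating receptors. The cells were expanded from spleen with IL-2 and carried the strain label C57BL/6. One genotype was wild-type and the other Mirc11-/-, which lacks a cluster of microRNAs (miR-23a, miR-27a, miR-24-2). Each genotype was either untreated or stimulated through NKG2D for 6 h, with 3 libraries of polyadenylated RNA in each of the 4 groups. The labels number the libraries as replicates but do not say how many mice they came from, so the p-values measure only the spread between these libraries.

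Glucose enters cells through facilitative transporters of the GLUT family. GLUT1 (Slc2a1) and GLUT3 (Slc2a3) act at the plasma membrane and supply glucose to activated lymphocytes, whereas GLUT6 (Slc2a6) and GLUT8 (Slc2a8) reside mainly on internal membranes. Tbc1d4 (AS160) and its relative Tbc1d1 keep transporter vesicles inside the cell until kinases such as Akt and AMPK phosphorylate them and 14-3-3 proteins bind. Txnip is an alpha-arrestin that promotes removal of GLUT1 from the cell surface and binds thioredoxin, and its gene is switched on by the glucose-sensing Mondo factors with their partner Mlx.

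Library totals ranged from 15139281 to 25342991 counts. Levels are given in CPM, the count of a gene as a share of its TMM-scaled library. All 13 NK markers on a list that includes Ncr1, Klrb1c and Klrk1 were detected in every group. Their summed level was 11754 to 14200 CPM in unstimulated and 8685 to 10115 CPM in stimulated wild-type libraries, and 12715 to 13854 and 5004 to 7774 CPM in Mirc11-/- libraries. The effector genes Gzmb and Prf1 made up most of that sum in each group. Summed T-cell markers (8 of 8 detected in each group) lay between 225 and 383 CPM. The 7 dendritic-cell markers (5 to 7 detected per group) were higher in every Mirc11-/- library, at 76.5 to 129.7 and 87.3 to 131 CPM in unstimulated and stimulated wild-type cells against 190.04 to 207 and 159.5 to 194 CPM. Itgax, which NK cells also express, made up most of that sum, and Cd209a had 0 counts in 3 of the 4 groups. The 8 markers of neutrophils and mast cells (4 to 7 detected) were at 36.2 to 39.2 CPM in unstimulated and 78.6 to 114 CPM in stimulated wild-type libraries, and at 26.8 to 38.5 and 79.5 to 127 CPM in Mirc11-/- ones, with Kit as most of the sum after stimulation and Fcer1a at 0 throughout. Markers of macrophages and monocytes summed to at most 19.3 CPM and those of erythroid cells and platelets to at most 5.33 CPM. B-cell markers were at 57.1 to 73.2 CPM in unstimulated and 102 to 128 CPM in stimulated libraries. Reads in 548 vomeronasal receptor genes, which are olfactory genes and serve here as a measure of background, summed to 13.6 to 17.4 CPM in unstimulated wild-type and 14.6 to 17.0 CPM in unstimulated Mirc11-/- libraries. After stimulation they summed to 24.8 to 41.5 CPM in wild-type and 49.1 to 85.4 CPM in Mirc11-/- libraries. This background and the groups therefore moved together, and the part of either the background or the cell-type markers in the results below was not tested. The highest single vomeronasal gene had a mean of 8.97 CPM in unstimulated and 10.1 CPM in stimulated wild-type libraries. In Mirc11-/- libraries it was 9.59 and 18.5 CPM, so 1 gene was a large part of the sum in each group. Mir27a had 8 counts in total in unstimulated and 5 in stimulated wild-type libraries and 0 in both Mirc11-/- groups, while Mir23a had 0 counts throughout and Mir24-2 had 1, in stimulated wild-type cells. In bulk RNA, fewer cells of a type and less RNA per cell cannot be told apart.

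Slc2a6, the lysosome-associated transporter GLUT6, shared with Tbc1d4 the largest relative differences on stimulation among the 7 genes in both genotypes. It lies on chromosome 2 at 27021363 to 27027998 (minus strand, GRCm38; ENSMUSG00000036067). In unstimulated wild-type replicates 1 to 3 it stood at 1.77, 2.14 and 1.88 CPM (45, 39 and 47 counts), and in stimulated ones at 19.2, 24.01 and 19.6 CPM (412, 471 and 386 counts). The unstimulated Mirc11-/- libraries held 1.60, 1.45 and 1.87 CPM and the stimulated ones 17.8, 27.0 and 20.6 CPM. Every stimulated library was thus far above every unstimulated one, and the genotypes overlapped within each treatment. The log2 difference was 3.44 ± 0.178 (SE), or 10.9-fold, in wild-type cells and 3.72 ± 0.188, or 13.2-fold, in Mirc11-/- cells. For the background, edgeR called 16.1% of all 17457 genes higher and 15.7% lower on stimulation of wild-type cells, and 23.5% higher and 22.1% lower in Mirc11-/- cells. With vomeronasal reads added as a covariate they were 3.90 and 4.62 log2.

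Slc2a8, which encodes GLUT8, had group means within a narrow range. The gene is on chromosome 2 at 32972990 to 32982083 (minus strand, ENSMUSG00000026791). Its wild-type levels were 5.06, 4.62 and 4.41 CPM without stimulation and 5.26, 5.76 and 5.94 CPM with it, so the stimulated libraries all lay above the unstimulated ones, though narrowly. In Mirc11-/- cells the values were 4.41, 4.23 and 3.34 CPM and then 4.41, 6.12 and 6.01 CPM, and the groups overlapped at their edges. The log2 differences were 0.27 ± 0.166 and 0.46 ± 0.172, and 0.67 and 1.26 with the vomeronasal covariate.

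**Figure D1:**
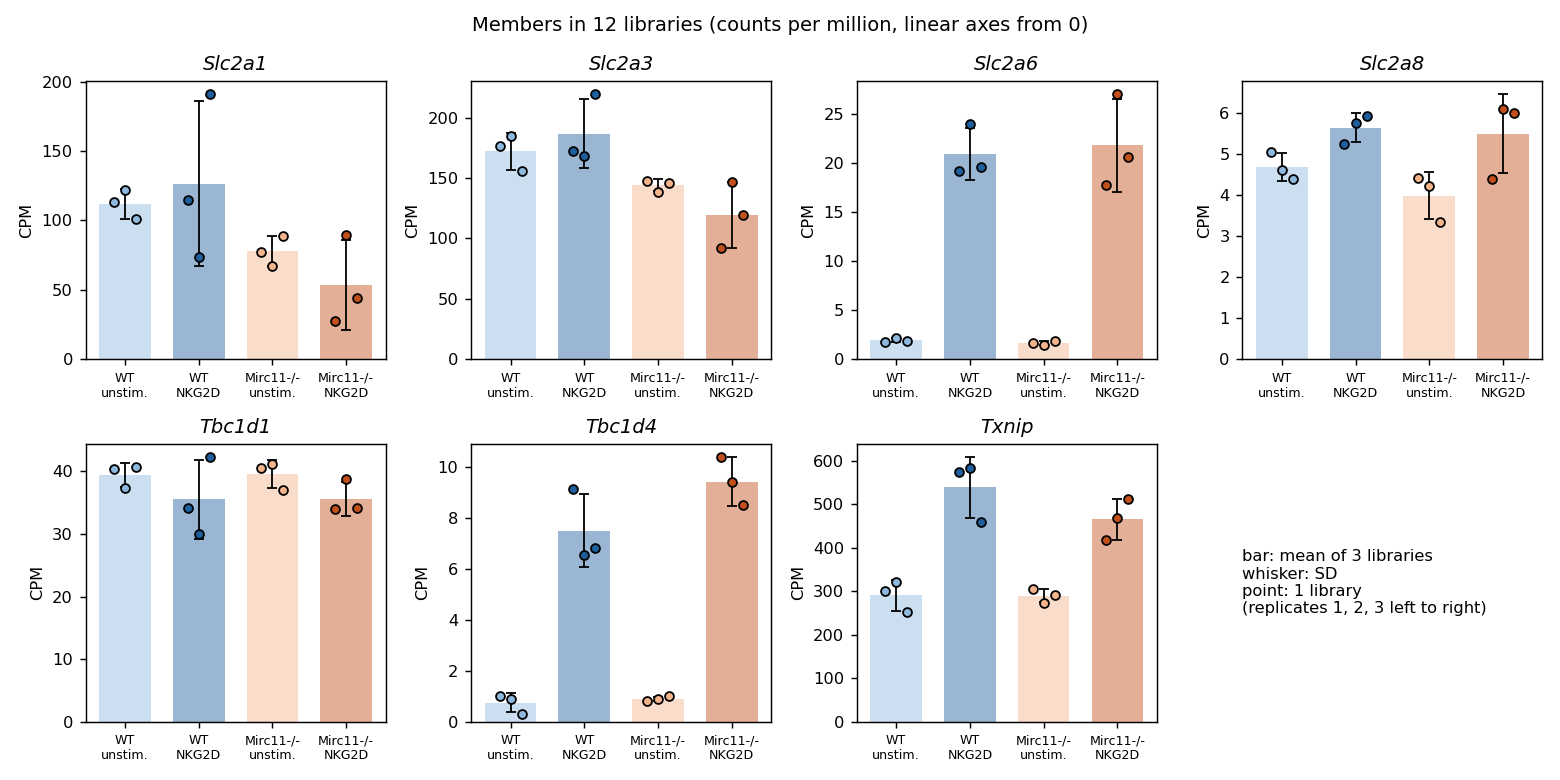
Level of each of the 7 genes in the 12 libraries, in CPM on linear axes from 0, with bars at the mean of 3 libraries and whiskers of 1 SD. Slc2a6, Tbc1d4 and Txnip are higher in all stimulated than in all unstimulated libraries of either genotype, whereas the stimulated libraries of Slc2a1 spread from 27.1 to 191 CPM.

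Slc2a1, the gene of the main transporter of proliferating lymphocytes, varied widely among stimulated libraries. It lies on chromosome 4 at 119108711 to 119137983 (plus strand, ENSMUSG00000028645), and its exons overlap the opposite-strand gene model Gm12868, which had group means of 0.0532 to 0.230 CPM. Unstimulated wild-type libraries held 113, 122 and 101 CPM, and stimulated ones 115, 73.6 and 191 CPM. The stimulated libraries bracket the unstimulated ones, and their SD was 59.6 against 10.6 CPM. Mirc11-/- libraries held 77.0, 67.4 and 88.7 CPM before and 27.1, 89.5 and 44.0 CPM after stimulation. Again the groups overlapped, and the lowest stimulated library, replicate 1, also had the highest vomeronasal level of all 12 (85.4 CPM). Stimulated wild-type replicates 1 to 3 had vomeronasal levels of 41.5, 26.1 and 24.8 CPM beside Slc2a1 at 115, 73.6 and 191 CPM, which shows no such order. The log2 differences were 0.18 ± 0.435 in wild-type and -0.54 ± 0.443 in Mirc11-/- cells. With the vomeronasal covariate both were positive, at 1.31 ± 0.658 and 1.57 ± 1.07, so the direction in Mirc11-/- cells turned.

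Slc2a3, the gene of the high-affinity transporter GLUT3, varied less between libraries. It occupies chromosome 6 from 122727809 to 122801640 (minus strand, ENSMUSG00000003153), and 2.33% of the 31-base words in its transcripts also occur in other genes. Its level was 176, 185 and 156 CPM in unstimulated and 173, 168 and 220 CPM in stimulated wild-type replicates 1 to 3. In Mirc11-/- cells it was 148, 138 and 146 CPM without and 91.8, 147 and 120 CPM with stimulation. Stimulated and unstimulated libraries overlapped in both genotypes, with log2 differences of 0.12 ± 0.147 and -0.27 ± 0.147. The vomeronasal covariate gave 0.68 ± 0.170 and 0.81 ± 0.286, which again turned the direction in Mirc11-/- cells.

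Tbc1d4, the Rab GTPase-activating protein first found as an Akt substrate, was barely detected at rest and was about as much higher on stimulation as Slc2a6. It lies on chromosome 14 at 101442360 to 101609191 (minus strand, ENSMUSG00000033083). Unstimulated wild-type libraries held 1.02, 0.88 and 0.32 CPM, from 26, 16 and 8 counts, and stimulated ones 9.13, 6.52 and 6.81 CPM, from 196, 128 and 134 counts. In Mirc11-/- cells 0.83, 0.88 and 0.996 CPM (15, 14 and 17 counts) stood against 10.4, 9.38 and 8.48 CPM (179, 161 and 151 counts). No stimulated library came near an unstimulated one. The difference was 3.34 ± 0.286 log2 (10.2-fold) in wild-type and 3.37 ± 0.289 (10.4-fold) in Mirc11-/- cells, and 3.05 and 2.81 log2 with the vomeronasal covariate. The low resting counts limit the precision of these folds. Leaving out single libraries gave 2.95 to 3.69 log2 in wild-type cells, against 3.32 to 3.51 for Slc2a6, so their order there was not resolved.

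Tbc1d1, its paralogue with the same domain layout, was the steadiest of the 7 genes. Over all 12 libraries it stayed between 30.02 and 42.3 CPM (chromosome 5, 64156305 to 64351486, plus strand, ENSMUSG00000029174). The stimulated libraries were at 34.2, 30.02 and 42.3 CPM in wild-type and 34.0, 38.8 and 34.1 CPM in Mirc11-/- cells, against 40.5, 37.3 and 40.7 and then 40.5, 41.2 and 37.0 CPM unstimulated. All groups overlapped, with log2 differences of -0.15 ± 0.111 and -0.15 ± 0.112 (-0.02 and 0.12 with the vomeronasal covariate). Per kilobase of exon, stimulated Tbc1d4 remained below Tbc1d1 in both genotypes, at 0.975 against 4.80 CPM in wild-type and 1.23 against 4.81 CPM in Mirc11-/- cells.

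Txnip had the highest level of the 7 genes per kilobase of exon and was higher in all stimulated libraries. The gene lies on chromosome 3 at 96557957 to 96561883 (plus strand, ENSMUSG00000038393) and overlaps the opposite-strand model Gm15441, whose group means were 0.521 to 0.936 CPM. Its wild-type levels were 300.5, 321 and 252 CPM unstimulated and 574, 584 and 459 CPM stimulated. The Mirc11-/- levels were 304, 273 and 292 CPM and then 417, 467 and 512 CPM. Both pairs of groups were well apart, by 0.89 ± 0.122 log2 (1.85-fold) in wild-type and 0.68 ± 0.122 log2 (1.61-fold) in Mirc11-/- cells. With the vomeronasal covariate these were 1.01 and 0.91 log2.

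The Txnip promoter is known for paired E-box-like motifs, the carbohydrate response element, through which Mondo factors act. RefSeq promoter windows (GRCm38.p6; 250 bases before to 50 after the start) were searched on both strands for 2 copies of CACGNG separated by 5 bases of any kind, and for the FOXO core letters TGTTTAC. The first was present in 16 of 32851 windows (0.049%) and the second in 1199 (3.65%). Txnip held both, and they are shown because it was the only one of the 7 genes with either in the windows found (none was found for Slc2a3). The window of its relative Arrdc4, also searched, held neither run of letters. The paired element lies at chr3:96557866-96557894 (plus strand), 85 to 69 bases before the start, with the matching letters in capitals. The FOXO letters lie on the reverse strand at chr3:96557825-96557853, 121 to 115 bases before the start, and are shown as read on the plus strand.
Txnip paired element: actgtgCACGAGGGCTGCACGAGcctcca
Txnip FOXO core: ttggaggcctgGTAAACAagggccaagta
A match in letters is a description and says nothing about what binds there.

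**Figure D2:**
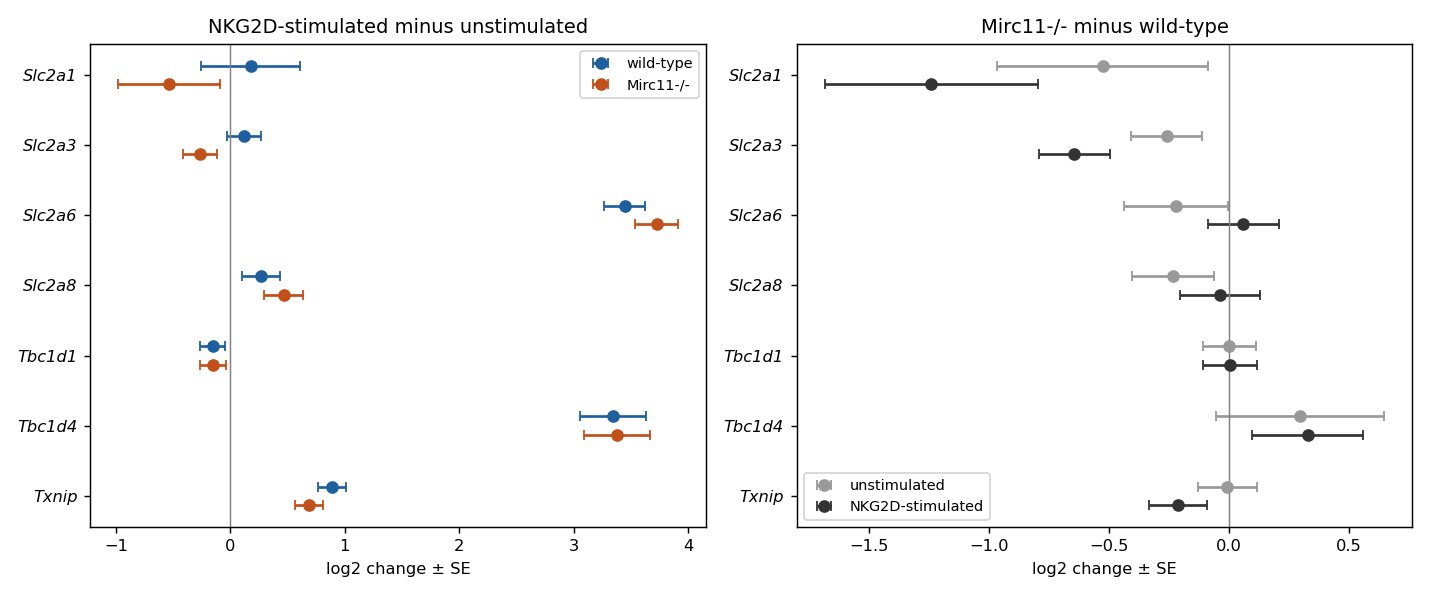
Log2 change with its SE (whiskers) for the 7 genes, on the left for stimulated minus unstimulated cells of each genotype and on the right for Mirc11-/- minus wild-type cells in each treatment. Slc2a6 and Tbc1d4 lie between 3.34 and 3.72 on the left in both genotypes, and on the right Slc2a1 and Slc2a3 are the lowest points in stimulated cells.

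Taking the 7 genes together, the median stimulation difference was 0.27 log2 in wild-type and 0.46 in Mirc11-/- cells, against 0.02 and 0.03 over all genes tested. In wild-type cells 4 of the 7 (Slc2a6, Slc2a8, Tbc1d4 and Txnip) had all stimulated libraries above all unstimulated ones, as had 24.9% of all genes, and 0 had them all below, as had 24.1%. In Mirc11-/- cells 3 of the 7 (Slc2a6, Tbc1d4 and Txnip) were separated upward, against 27.9% of all genes, and 0 downward, against 26.2%. Since the genes were chosen in part by this contrast, nothing is read from these shares.

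Levels can be compared between genes only per length, here as CPM per kilobase of merged exons. In unstimulated wild-type cells the order was Txnip at 93.2, Slc2a1 at 31.9, Slc2a3 at 23.8, Tbc1d1 at 5.33, Slc2a8 at 1.46, Slc2a6 at 0.601 and Tbc1d4 at 0.0964 CPM per kilobase, and no neighbours overlapped. After stimulation Slc2a6 moved up to the fourth place, with 6.52 CPM per kilobase in wild-type cells, above Tbc1d1 at 4.80, Slc2a8 at 1.76 and Tbc1d4 at 0.975. Slc2a1 (36.1) and Slc2a3 (25.8) then overlapped, as they did in unstimulated Mirc11-/- cells (22.2 and 19.9). In stimulated Mirc11-/- cells Slc2a3 (16.5), Slc2a1 (15.3) and Slc2a6 (6.79) stood in this order, and only Slc2a1 overlapped its neighbours. Its lowest library (7.74) fell below the highest Slc2a6 library (8.42) and its highest (25.5) above the highest Slc2a3 library (20.3), while Slc2a3 and Slc2a6 did not overlap. Txnip led in every group, with 173, 92.8 and 149 CPM per kilobase in stimulated wild-type, unstimulated Mirc11-/- and stimulated Mirc11-/- cells. The order of Slc2a1 and Slc2a3 depends on the length used. Slc2a1 was above Slc2a3 in 3 of the 4 groups by merged exons and in 0 by the longest coding transcript.

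Whether loss of the Mirc11 microRNAs alters these genes was tested between genotypes. In stimulated cells Slc2a3 was 1.56-fold lower in Mirc11-/- than in wild-type cells, with means of 120 ± 27.7 against 187 ± 28.5 CPM (SD, n = 3). The log2 change was -0.64 ± 0.148, with an adjusted p of 0.0205 in edgeR's quasi-likelihood test, and 3 of 3 Mirc11-/- libraries lay below all wild-type ones. It was the only one of the 7 genes called in this comparison, in which edgeR called 5.13% of all genes lower and 16.8% had all Mirc11-/- libraries below all wild-type libraries. Averaged over both treatments Slc2a3 also passed, at -0.45 ± 0.104 log2 (edgeR adjusted p = 0.0189), where 4.91% of all genes were called lower.

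The Slc2a3 call ended without some single libraries and with the background as a covariate. Without stimulated wild-type replicate 3, its highest library, the adjusted p in stimulated cells was 0.0968 (edgeR, -0.52 log2). The averaged call ended without that library (-0.39 log2, adjusted p 0.0555), without unstimulated wild-type replicate 1 (-0.45, 0.0524) or 2 (-0.43, 0.0514), and without unstimulated Mirc11-/- replicate 2 (-0.44, 0.0591), each in edgeR, so the difference itself stayed between -0.45 and -0.39 log2. Vomeronasal reads were higher in all stimulated Mirc11-/- than in all stimulated wild-type libraries, and the summed NK markers were lower in all of them. Gzmb and Prf1, most of that sum, were at 4459 and 2290 CPM in stimulated wild-type and 3159 and 1063 CPM in stimulated Mirc11-/- cells. Other listed NK markers were lower too, such as Eomes (169 and 116 CPM) and Nkg7 (126 and 84.0 CPM). Still others were nearly level, such as Klrk1 (142 and 140 CPM), Klre1 (80.1 and 80.5 CPM) and Tbx21 (29.8 and 28.6 CPM). With the vomeronasal level as a covariate, Slc2a3 differed by -0.08 log2 in stimulated cells (edgeR adjusted p = 0.982) and by -0.15 log2 averaged (0.678). Background and genotype cannot be told apart in the stimulated libraries.

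**Figure D3:**
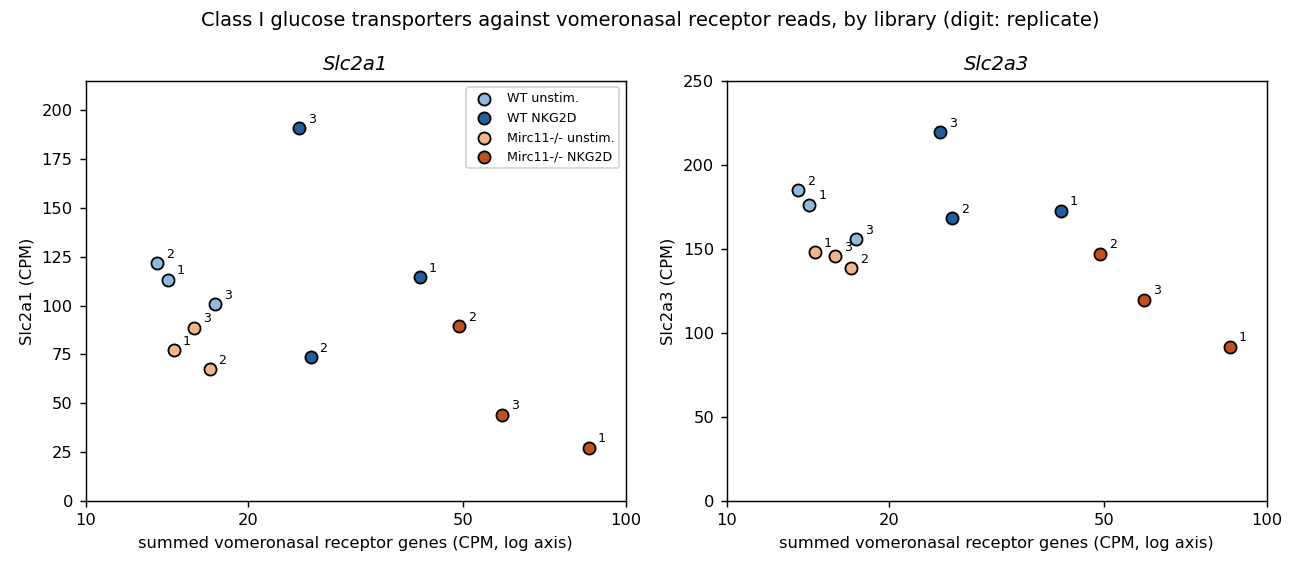
Slc2a1 (left) and Slc2a3 (right) in CPM on linear axes from 0 against the summed vomeronasal receptor genes in CPM on a log axis; each point is 1 library and the digit its replicate. The 3 stimulated Mirc11-/- libraries have the highest vomeronasal levels, 49.1 to 85.4 CPM, and stimulated wild-type replicate 3 has the highest level of both transporters.

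Slc2a1 had the larger difference but did not pass. Its log2 change in stimulated cells was -1.24 ± 0.445 (95% interval -2.26 to -0.21, edgeR adjusted p = 0.106), and replicate 2 of each genotype overlapped at 89.5 and 73.6 CPM. DESeq2 called it (adjusted p = 0.0464), and so did edgeR without stimulated Mirc11-/- replicate 2 (-1.84 log2, adjusted p = 0.0253). With the vomeronasal covariate the value was -0.18 log2 (edgeR adjusted p = 0.99). Averaged over treatments it was -0.88 ± 0.312 log2 (edgeR adjusted p = 0.125, and 0.0288 without stimulated Mirc11-/- replicate 2).

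In unstimulated cells edgeR called 0 of the 7 genes, with 0 at an unadjusted p under 0.05, and 1.11% of all genes in either direction. DESeq2 and limma voom also called 0. Slc2a1 and Slc2a3 had all 3 Mirc11-/- libraries below all wild-type ones, as did 8.91% of all genes, with log2 changes of -0.53 ± 0.438 and -0.26 ± 0.147 (edgeR adjusted p 0.856 and 0.695). Txnip stood at 290 ± 15.5 CPM in Mirc11-/- and 291 ± 35.7 CPM in wild-type cells, a log2 change of -0.01 with a 95% interval of -0.29 to 0.27.

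The remaining 5 genes overlapped between genotypes in both treatments. In stimulated cells Slc2a6 differed by 0.06 log2 (95% interval -0.28 to 0.40), Slc2a8 by -0.04 (-0.42 to 0.35) and Tbc1d1 by 0.00 (-0.25 to 0.26). Tbc1d4 differed by 0.33 log2 (-0.20 to 0.86) and Txnip by -0.21 (-0.49 to 0.07), with edgeR adjusted p of 0.342 and 0.249. These intervals leave room for changes of over 1.5-fold in Tbc1d4. The medians over the 7 genes were -0.22 log2 unstimulated, -0.04 stimulated and -0.11 averaged, against 0.01, 0.02 and 0.02 over all genes.

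Whether stimulation itself acted differently in Mirc11-/- cells was tested as the difference of the 2 responses. EdgeR called 0 of the 7 genes, with 0 at an unadjusted p under 0.05, and 0.0115% of all genes. DESeq2 and limma voom called 0 of the 7 as well. The response of Slc2a1 differed by -0.71 log2 (95% interval -2.14 to 0.72) and that of Slc2a3 by -0.39 (-0.87 to 0.09), and both estimates changed sign with the vomeronasal covariate (0.26 and 0.14). For Slc2a6 the difference was 0.28 (-0.32 to 0.89), for Slc2a8 0.20 (-0.35 to 0.75) and for Txnip -0.21 (-0.60 to 0.19). Tbc1d4 gave 0.03 (-1.01 to 1.08) and Tbc1d1 0.00 (-0.36 to 0.37). The intervals for Slc2a1 and Tbc1d4 reach beyond 1 log2 unit, so a difference of that size in either response was not excluded.

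Of the mature microRNAs from the deleted cluster, 3 were used here, the -3p forms. They recognise their targets through the seed, bases 2 to 8, shown in capitals. They are given here (RefSeq, GRCm38.p6, chromosome 8, plus strand, 84208563 to 84208583, 84208727 to 84208747 and 84208875 to 84208896) because a target would carry the complement of a seed in its 3′ untranslated region.
mmu-miR-23a-3p: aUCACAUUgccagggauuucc
mmu-miR-27a-3p: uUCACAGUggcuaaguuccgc
mmu-miR-24-3p: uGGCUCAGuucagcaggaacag
The 7-base site is AATGTGA for miR-23a, ACTGTGA for miR-27a and, for miR-24, CTGAGCC. These occur in 17.0%, 18.2% and 19.5% of the 12800 tested genes with an annotated 3′ untranslated region. Among the 7 genes the single match was 1 miR-27a site in Tbc1d4, at position 1061 of 2178 in the 3′ untranslated region, on chr14:101443461-101443487 (minus strand, GRCm38). It is followed by an A.
Tbc1d4 site: aaaatttagaACTGTGAactatttagg
Tbc1d4 was not called between genotypes (0.30 log2 unstimulated and 0.33 stimulated; edgeR adjusted p 0.927 and 0.342). Slc2a3, the gene that was called, was lower without the cluster and held 0 of the 3 kinds of site in its 2122 bases. Only exact 7-base matches in the longest annotated 3′ untranslated region of each gene were searched. MicroRNAs from outside the cluster were not considered. Whether any of the 7 genes is a target was not tested.

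Around these 7 genes, 127 genes of the same pathway were listed in 6 groups, and 113 of them passed the filter. In wild-type cells stimulation raised 26 and lowered 18, and in Mirc11-/- cells 24 and 25 (edgeR adjusted p under 0.05). That is 23.0% and 15.9% of the list in wild-type cells, against 16.1% and 15.7% of all genes, and 21.2% and 22.1% in Mirc11-/- cells, against 23.5% and 22.1%, so 3 of the 4 shares lay near those of all genes. These counts include Slc2a12, Sort1 and Nlrp3, genes of low counts that could pass the filter mainly through the groups where they are higher. The shares are therefore given as a description. The groups of genes below are read against the same percentages of all genes. With the vomeronasal covariate 4 genes were called in Mirc11-/- cells, and leaving out unstimulated wild-type replicate 3 left 27 calls in wild-type cells.

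Other hexose transporters were mostly silent. Of 13 listed, 5 passed the filter, with a median of 0.25 log2 in wild-type cells against 0.02 over all genes. Slc2a2, Slc2a4 (the insulin-regulated GLUT4) and Slc2a5 were among those that did not pass, with at most 8, 5 and 3 counts in any library. Slc45a4, a proton-coupled sugar transporter relative, fell from 16.1 ± 0.361 to 12.7 ± 0.80 CPM in wild-type cells (-0.35 log2, edgeR adjusted p = 0.0256), a call that ended under 6 of 21 alternatives. Slc2a12 rose from 0.241 to 0.822 CPM, and its edgeR call ended under 13 of 20. Slc2a12 had 0 to 21 counts per library and could pass the filter on low counts mainly through its stimulated libraries. Its rise is therefore given as a description. In Mirc11-/- cells edgeR called 0 of the 5.

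Genes that trap glucose as its phosphate or export lactate had 1 of 10 higher and 1 lower in wild-type cells, and 1 higher and 2 lower in Mirc11-/- cells, each below the share of all genes. Slc16a1, the lactate transporter MCT1, fell in both genotypes, from 98.8 ± 3.58 to 64.9 ± 8.67 CPM in wild-type (-0.61 log2, edgeR adjusted p = 0.00501) and from 94.6 ± 6.73 to 45.2 ± 10.6 CPM in Mirc11-/- cells (-1.07 log2, 6.12e-05). Hk2, the inducible hexokinase, fell from 87.7 ± 5.27 to 33.1 ± 14.97 CPM in Mirc11-/- cells (-1.41 log2, edgeR adjusted p = 0.00422), and its wild-type value was -0.67 log2 (0.114). Slc16a7, another monocarboxylate transporter with 3 to 19 counts per library, rose from 0.345 to 0.844 CPM in Mirc11-/- cells (edgeR adjusted p = 0.0211). This call ended under 5 of 20 alternatives. With the vomeronasal covariate none of the 3 was called. Slc16a1 was then at -0.08 and -0.03 log2, Hk2 at 0.34 and Slc16a7 at 0.61 log2 in Mirc11-/- cells.

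Among the kinases upstream of Tbc1d4 and the 14-3-3 genes, 4 of 25 rose and 8 fell in wild-type cells and 4 rose and 11 fell in Mirc11-/- cells, with 3 rises and 8 falls in common. Rises were 16% in both genotypes (all genes 16.1% and 23.5%), and falls were 32.0% and 44.0% (all genes 15.7% and 22.1%). Pik3cd, the lymphocyte catalytic subunit of PI3-kinase, fell from 411 ± 14.4 to 221 ± 3.35 CPM in wild-type and from 402 ± 32.05 to 206 ± 7.84 CPM in Mirc11-/- cells (-0.89 and -0.96 log2; edgeR adjusted p 4.62e-06 and 1.54e-06). The 14-3-3 genes Ywhaz and Ywhae fell by 0.56 and 0.60 log2 in wild-type cells and by 0.73 and 0.67 log2 in Mirc11-/- cells. With the vomeronasal covariate the Mirc11-/- calls of Pik3cd, Ywhaz and Ywhae ended at -0.74, -0.30 and -0.47 log2, and that of Ywhaz in wild-type cells at -0.35 log2.

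The Rab GTPases on which Tbc1d4 acts and the vesicle genes had 7 of 24 higher and 2 lower in wild-type cells (29.2% and 8.33%, all genes 16.1% and 15.7%). There were 4 higher and 4 lower in Mirc11-/- cells (16.7% each, below the 23.5% and 22.1% of all genes). Ralgapb, a subunit of the complex that restrains Ral GTPases, rose from 153 ± 4.76 to 287 ± 14.8 CPM in wild-type and from 143 ± 2.05 to 309 ± 9.09 CPM in Mirc11-/- cells (0.91 and 1.11 log2), and both calls held under all 21 alternatives. Rab8b, one of the Rab substrates, rose by 0.46 log2 in each genotype, and its Mirc11-/- call ended with the vomeronasal covariate, where the estimate was larger and less precise (0.65 ± 0.209 log2, edgeR adjusted p = 0.096). Sort1 (sortilin, a vesicle sorting receptor) rose by 2.74 and 3.53 log2 but reached only 0.521 and 0.746 CPM, and its calls ended with the vomeronasal covariate, at 1.72 and 1.503 log2. Sort1 had 0 to 16 counts per library and could pass the filter on low counts mainly through its stimulated libraries. Its rise is therefore given as a description, and it is among the higher genes counted above in both genotypes.

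Other members of the TBC-domain family showed movement in both directions. In wild-type cells 9 of 35 rose and 5 fell, in Mirc11-/- cells 12 rose and 3 fell, and 9 rises and 3 falls were shared. The rises were 25.7% and 34.3% of the list (all genes 16.1% and 23.5%) and the falls 14.3% and 8.57% (all genes 15.7% and 22.1%). Tbc1d17 rose from 17.5 ± 0.668 to 31.6 ± 2.04 CPM and from 15.9 ± 1.38 to 33.4 ± 1.74 CPM (0.85 and 1.07 log2). Tbc1d22a rose by 0.75 and 0.71 log2, and these 4 calls held under all 21 alternatives. Tbc1d22b fell by 0.74 and 0.78 log2, and Tbc1d2b by 0.58 and 0.60 log2, with both wild-type calls held throughout. Both Mirc11-/- calls ended with the vomeronasal covariate, at -0.95 ± 0.308 log2 for Tbc1d22b, a larger estimate, and -0.42 ± 0.223 log2 for Tbc1d2b (edgeR adjusted p 0.0997 and 0.285). The medians of the list were 0.08 log2 in both genotypes, against 0.02 and 0.03 over all genes.

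Close to Txnip, the list of alpha-arrestins, Mondo factors and thioredoxin genes had 4 of 14 higher and 1 lower in wild-type cells (28.6% and 7.14%, all genes 16.1% and 15.7%). Of the same genes 3 were higher and 5 lower in Mirc11-/- cells (21.4% and 35.7%, all genes 23.5% and 22.1%). Arrdc4, the closest relative of Txnip among these and likewise a known Mondo target, rose from 18.3 ± 3.03 to 48.8 ± 5.61 CPM in wild-type and from 18.9 ± 2.39 to 55.6 ± 2.85 CPM in Mirc11-/- cells (1.42 and 1.56 log2; edgeR adjusted p 3.42e-06 and 1.06e-06), under all 21 alternatives. Arrdc3 rose by 0.48 log2 in wild-type cells (edgeR adjusted p = 0.00813, and no longer called without stimulated wild-type replicate 1, at 0.40 log2 and 0.0507, or with the vomeronasal covariate, at 0.52 log2 and 0.0857). Nlrp3, the inflammasome sensor to which Txnip can bind, fell by 2.11 and 1.54 log2 from 2.09 and 1.85 CPM, and neither call held with the vomeronasal covariate (-1.28 and 0.11 log2). With 7 to 56 counts per library, Nlrp3 could pass the filter on low counts mainly through its unstimulated libraries. Its fall is therefore given as a description. Mlx, the Mondo partner, had 38.3 ± 3.12 and 34.9 ± 2.62 CPM in wild-type cells (edgeR adjusted p = 0.412) and fell from 38.3 ± 1.35 to 25.2 ± 4.69 CPM in Mirc11-/- cells (0.00116). The median of the list was -0.09 log2 in wild-type and -0.17 in Mirc11-/- cells.

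**Figure D4:**
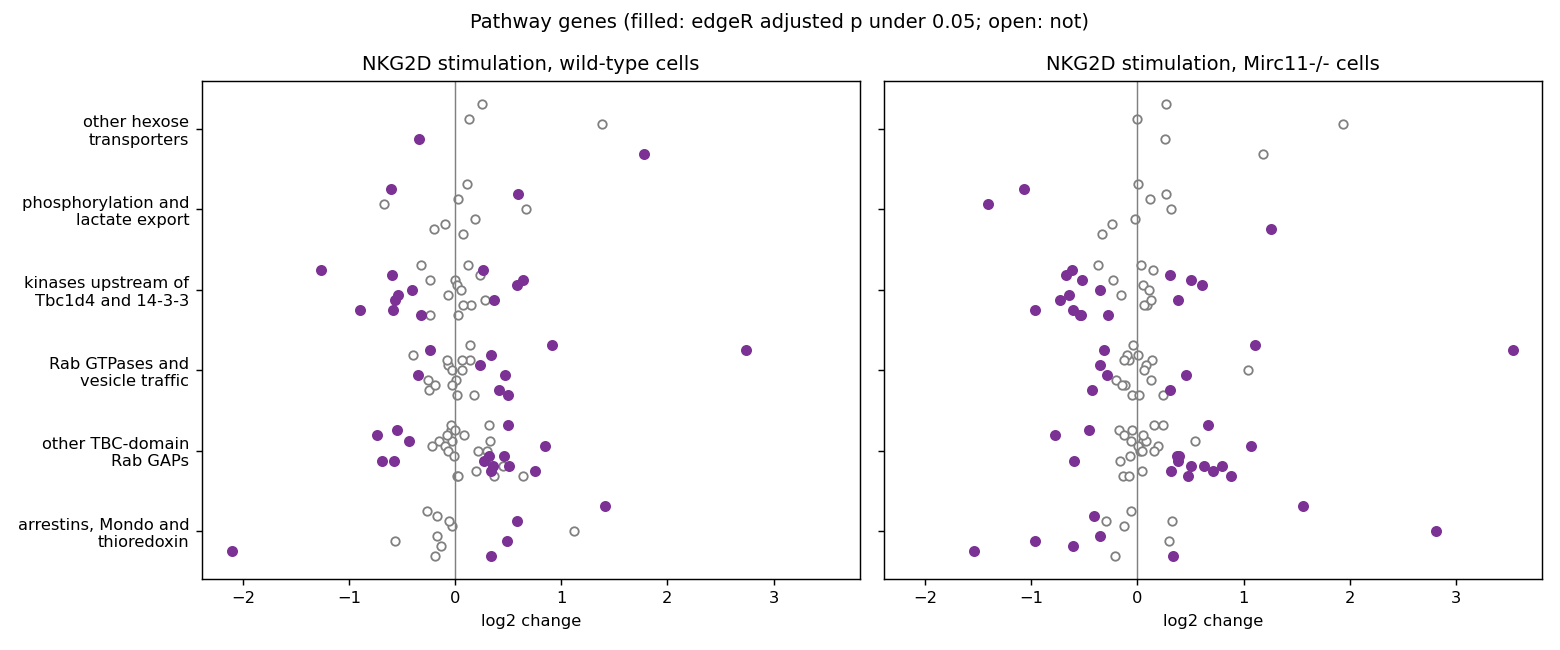
Log2 change on stimulation of the 113 tested pathway genes in wild-type (left) and Mirc11-/- cells (right), 1 point per gene in 6 lists, filled where the edgeR adjusted p is under 0.05 (44 genes on the left and 49 on the right). Sort1, with 0 to 16 counts per library, is the highest filled point on both sides, and Nlrp3 is the lowest.

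Between genotypes edgeR called 0 of the 113 pathway genes in unstimulated cells, with 11 at an unadjusted p under 0.05 (2 called by DESeq2 and 0 by limma voom). In stimulated cells 0 were higher and 4 lower in Mirc11-/- cells, or 3.54% lower against 5.13% of all genes. These were Slc16a1 (-0.52 log2), Mlx (-0.47), Ywhah (-0.42) and Akt1 (-0.33), with edgeR adjusted p from 0.0224 to 0.0394, and Ywhah and Akt1 are named because the count is small. Averaged over treatments 8 were lower (7.08%, all genes 4.91%), among them Rab4a (-1.43 log2, with group means of 0.276 to 1.11 CPM) and Hk1 (-0.53 log2, edgeR adjusted p = 0.0217). Rab4a had 4 to 30 counts per library and could pass the filter on low counts mainly through its wild-type libraries. Its difference is therefore given as a description. Of up to 20 alternatives each, 10 ended the call of Slc16a1, 4 that of Mlx, 5 that of Hk1 and 1 that of Rab4a. In stimulated cells the count was 0 without stimulated wild-type replicate 2 or 3 and 12 without stimulated Mirc11-/- replicate 2, and averaged it was 1 without unstimulated wild-type replicate 1 or unstimulated Mirc11-/- replicate 2. Both counts were 0 with the vomeronasal covariate. For the difference of the responses edgeR called 0, with 8 at an unadjusted p under 0.05, and DESeq2 and limma voom also called 0.

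Genes with the pattern most like Slc2a6, Tbc1d4 and Txnip were ranked by Pearson's r of log2 CPM over the 12 libraries, which share their depth and treatment groups, among 10989 genes whose mean log2 CPM was 2 or more. For Slc2a6 the first was Pgk1-rs7 (r = 0.994), at 0 counts in every unstimulated library and at 64.5 to 194 CPM in stimulated ones. It is a Pgk1-related sequence, so the assignment of its reads is uncertain. Its counts were 2992 to 3821 in stimulated wild-type and 1113 to 2448 in stimulated Mirc11-/- libraries. Whether reads were assigned alike in unstimulated and stimulated libraries was not tested, which limits all stimulation differences given here. Ppfibp1 (0.993) and Gadd45b (0.992) followed, the latter at 2.73 ± 0.648 and 20.7 ± 2.66 CPM in unstimulated and stimulated wild-type cells. For Tbc1d4 the nearest were Timp2 (0.993; 1.29 ± 0.566 and 8.82 ± 1.32 CPM), Trp53inp1 (0.988) and Klhl6 (0.987). For Txnip they were Ppt1 (0.978), Serpinb9b (0.978; 306 ± 60.2 and 593 ± 67.1 CPM) and Rsph3b (0.976). These values describe likeness over groups that differ in treatment.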

How the data were processed

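RNA sequencing measured polyadenylated RNA in 12 libraries. Per the submitters' processing notes, the tools were RSEM 1.3.0, Bowtie2 2.2.8, Trim Galore 0.4.1 and bcl2fastq, with GRCm38. The authors deposited RSEM expected counts, whole numbers as deposited and not scaled between libraries. The annotation release and strand setting are not given in the sources used here. Reads of genes on opposite strands can therefore not be separated.

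Genes were filtered with filterByExpr, scaled by TMM and fitted with edgeR 4.0.16 (R 4.3.3, robust quasi-likelihood, 1 mean per group over all 12 libraries), with Benjamini-Hochberg adjustment over 17457 genes at 0.05, two-sided. Intervals are 95%, from the SE and a t distribution with 8 degrees of freedom. Coordinates, exon lengths and 3′ untranslated regions came from GENCODE vM21 (17401 of 17457 matched), microRNAs and promoters from RefSeq. The code was tested on simulated data.

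The genes, pathway lists and settings were chosen with earlier results of these data known. Named pathway genes were the up to 4 called genes per list with the smallest p, and for Slc2a6, Tbc1d4 and Txnip the 3 genes of highest r were named; some are not reported here. Alternatives were other scaling, filters, DESeq2 1.42.0, limma 3.58.1 voom, replicate blocks, a vomeronasal covariate, another length and leaving out each library.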

Additional observations from a re-analysis of the deposited data

How the results depend on the processing

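The stimulation differences of the 7 genes moved by less than 1 SD between replicates in 283 of 294 recalculations, and the other 11 all came from the vomeronasal covariate. In wild-type and Mirc11-/- cells that covariate gave 1.31 and 1.57 log2 for Slc2a1, 0.68 and 0.81 for Slc2a3, 3.90 and 4.62 for Slc2a6 and 0.67 and 1.26 for Slc2a8, and in Mirc11-/- cells 0.12 for Tbc1d1, 2.81 for Tbc1d4 and 0.91 for Txnip. Slc2a1, Slc2a3 and Tbc1d1 thereby changed sign in Mirc11-/- cells. It also gave 0.00385 for Txnip unstimulated, 0.387 and 0.0911 for Slc2a8 stimulated and averaged, 0.171 for Slc2a6 averaged, and 0.262, 0.136 and -0.238 for the response differences of Slc2a1, Slc2a3 and Tbc1d4. Under it Hk2, Nlrp3 and Mlx were at 0.338, 0.112 and 0.17 log2 on stimulation of Mirc11-/- cells and Slc16a1 at 0.0309 between stimulated genotypes. It left 4 pathway calls in stimulated Mirc11-/- cells, and 0 calls of the 7 genes and 0 pathway calls between stimulated or averaged genotypes. The cause was not tested. Moves of less than 1 SD could still change the sign. Leaving out single libraries gave -0.26 to 0.44 log2 for Slc2a1 and -0.02 to 0.18 for Slc2a3 on stimulation of wild-type cells. In Mirc11-/- cells Slc2a1 then ranged from -1.14 to -0.22 log2 and Slc2a3 from -0.46 to -0.11.

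Between genotypes, other settings also changed the sign of some values of the 7 genes. Tbc1d1 had -0.00603 (size factors of DESeq2), -0.000875 (without a composition factor), -0.0248 (no filter) and -0.00626 (DESeq2) unstimulated, -0.00365, -0.0775 (no filter) and -0.00364 stimulated, -0.00484, -0.0511 (no filter) and -0.00495 averaged, and -0.0527 (no filter) for the response difference. Slc2a6 stimulated was -0.0188 without a filter, Slc2a8 stimulated 0.0238 without a composition factor, and the Tbc1d4 response difference -0.0311 without a filter and -0.133 with limma voom. Leaving out single libraries gave, for these, Tbc1d1 -0.0373 to 0.047 unstimulated, -0.108 to 0.144 stimulated, -0.0535 to 0.0728 averaged and -0.11 to 0.143 for the response. Tbc1d4 ranged from -0.0857 to 0.654 unstimulated and -0.333 to 0.407 for the response, Txnip from -0.102 to 0.0700 unstimulated, and in stimulated cells Slc2a6 from -0.132 to 0.185 and Slc2a8 from -0.125 to 0.101.

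Pathway calls between unstimulated genotypes were 1 without a composition factor, 2 without a filter and 2 with DESeq2, and 0 to 2 over left-out libraries. Between stimulated genotypes (4) they were 9 without a filter, 6 with the stricter filter, 16 with DESeq2, 8 with limma voom and 0 to 12 over left-out libraries. Averaged (8) they were 5 without a composition factor, 12 without a filter, 13 with DESeq2 and 1 to 8 over left-out libraries. On stimulation of wild-type cells they were 27 to 57 over left-out libraries. Of the 7 genes DESeq2 called 2 between stimulated genotypes, and left-out libraries 0 to 2, stimulated and averaged. Slc2a1 stood above Slc2a3 per length in 0 groups by the longest coding transcript.

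Same-numbered libraries correlated by -0.184 to 0.226 (over 0.1 in 6 of 18 pairs), and within a genotype by -0.065 to 0.226 (over 0.1 in 3 of 6). In wild-type cells the 3 same-numbered pairs (0.093 to 0.226) all lay above the 6 differently numbered ones (at most 0.027), a hint of pairing from the data, whereas in Mirc11-/- cells they did not (-0.065 to 0.141 against -0.195 to 0.123). The numbers were not taken to pair the samples, since not every pair was over 0.1. With the replicate block Slc2a3 was at -0.65 log2 in stimulated cells (edgeR adjusted p = 0.0209), and 8 pathway genes were called there; with the block within genotype the Tbc1d4 response difference was -0.0123. Low counts of Tbc1d4 and Slc2a6 at rest limit their folds.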

Other observations

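The genes most like Slc2a1 over the 12 libraries, by Pearson's r of log2 CPM, were looked up after its values were seen. They were the RNA demethylase Alkbh5 (r = 0.985), the glycolytic mutase Pgam1 (0.966) and Slc2a3 (0.963). Pgam1 had 211 ± 21.0 CPM in unstimulated and 251 ± 73.1 CPM in stimulated wild-type libraries, and 181 ± 15.3 and 152 ± 78.8 CPM in Mirc11-/- libraries (SD, n = 3). Like Slc2a1, it spread more widely among stimulated than among unstimulated libraries of either genotype. Pgam1 was picked for its likeness to Slc2a1 over these same libraries, so the shared spread follows from the choice and is no separate result.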
